A study of Danio rerio with 20 samples.

Results

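Muscle of 3-year-old male zebrafish (Danio rerio) that had been in a swim tunnel was compared with muscle of 1-year-old males that had not, which addresses how far exercised old muscle still stands from resting young muscle. The comparison uses 10 of the 20 libraries in the series. Its members were chosen by their labels for age and perturbation: 5 libraries of 3-year-old fish after the swim tunnel (exercised old muscle) and 5 libraries of 1-year-old fish with no perturbation (resting young muscle). The other 10 libraries are 5 of 3-year-old fish with no perturbation (resting old muscle) and 5 of 1-year-old fish after the swim tunnel (exercised young muscle), and they enter the same statistical model. All fish in all 4 groups are males of the strain labelled AB JxTu, and the tissue is given as muscle, without the part of the body or the fibre type. A swim tunnel makes a fish swim against a current; the labels give neither its speed and duration nor the time between swimming and sampling. The design varies both age and exercise between the 2 groups, so the share of a difference that goes with each cannot be read from this comparison alone, and values from resting old muscle are set beside it. Those side comparisons share libraries with the main one, and their values are given side by side only.

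The trunk muscle of fish is mostly fast, glycolytic white muscle with a thin sheet of slow, oxidative red muscle under the skin. Endurance swimming is known for drawing on mitochondrial oxidation of fatty acids, and ageing muscle for loss of mitochondrial protein quality control and for a shift towards protein breakdown and inflammation. Many muscle genes also follow the circadian clock, a loop in which the BMAL and CLOCK activators drive the PER, CRY and REV-ERB repressors that shut them off. The labels give no time of day, date, batch or pairing, and they do not say whether libraries are separate fish, so the p-values reflect no more than the spread between these libraries.

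Each library held between 31550213 and 48920974 counts, and 17025 of 32105 genes had enough counts to be tested. Levels are given as CPM, counts scaled to library size after edgeR's TMM correction, in the order of libraries 1 to 5 of a group, a numbering that only names them. A gene was said to rise or fall, or to pass the test, when its adjusted p in edgeR's quasi-likelihood test (Benjamini-Hochberg over the 17025 genes) was under 0.05. In exercised old against resting young muscle 559 genes rose and 545 fell, 6.48% of those tested (3.28% higher and 3.2% lower), and 3856 had an unadjusted p under 0.05. Of the genes that passed, 478 differed at least 2-fold, and the median log2 change was 0.98 among those that rose and -0.84 among those that fell. The median over all tested genes was 0.0014 and the median standard error 0.28. Without TMM scaling, on library totals alone, the median over all genes was -0.129 and the split was 355 higher against 918 lower, so the even split holds relative to the TMM scale. By comparison, 112 genes rose and 91 fell in resting old against resting young muscle (1.19% of those tested, 0.658% higher and 0.535% lower), and 8 rose and 4 fell in exercised old against resting old muscle (0.0705%, 0.047% higher and 0.0235% lower). The 5 exercised old and 5 resting young libraries did not overlap in CPM for 3.86% of genes with higher levels and 4.02% with lower levels, against which the statements on overlap below are to be read.

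The count of calls rested on single libraries. It was 648, 472 and 532 without resting young libraries 1, 3 and 4, and 578, 669 and 512 without exercised old libraries 1, 3 and 4. It was 1575 without resting young library 5, the highest of the 20 fits that each leave out 1 library. In the 29 other settings tried the 1104 genes kept their direction wherever they were tested, since some settings filter out genes. Of them 364 (174 higher, 190 lower) passed in each of the 20 leave-one-out fits. Of the 20 fits, 10 leave out a library of the 2 groups not compared, so they keep all the compared libraries. Their counts of calls were 932 to 1482. Genes given with a change below that passed in fewer than the 20 fits have the number of fits beside their values. For single genes in resting old against resting young muscle the fits were not counted, so a missing number there does not mean that all were passed.

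Defining muscle genes were abundant in both groups. Their summed counts are given in percent of the TMM-corrected library size, which is not a share of all counts. The TMM factors were 0.837 to 1.153 in exercised old and 1.036 to 1.248 in resting young libraries. On this scale genes of the fast-fibre sarcomere held 17.3% to 29.4% in exercised old muscle (median 21.8%) and 14.3% to 21.1% in resting young muscle (median 18.6%). Slow-fibre sarcomere genes held 0.071% to 0.283% in exercised old muscle (median 0.129%) and 0.0791% to 0.21% in resting young muscle (median 0.146%). Markers of other cell types differed between single libraries. Markers of epidermis, scored as the mean of their centred log2 CPM, were high in exercised old libraries 1 and 3 (2.14 and 2.21) and in resting young library 5 (3.17), with summed levels of 408 to 3750 CPM in exercised old and 366 to 5940 CPM in resting young muscle. Nerve and glia markers, scored in the same way, were high in resting young libraries 1 and 4 (0.98 and 1.70). By summed level, resting young library 2 was the highest instead (935 CPM, with a score of -0.28), so the choice of nerve-high libraries rests on the score. The counts of calls in the lists below are also given without the 3 libraries high in epidermis markers and without the 2 high in nerve markers. Over all genes these settings left 294 calls (172 higher, 122 lower) and 199 calls (61 higher, 138 lower), each with fewer libraries in the test. The part of these markers in the gene groups below was not tested further.

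**Figure D1:**
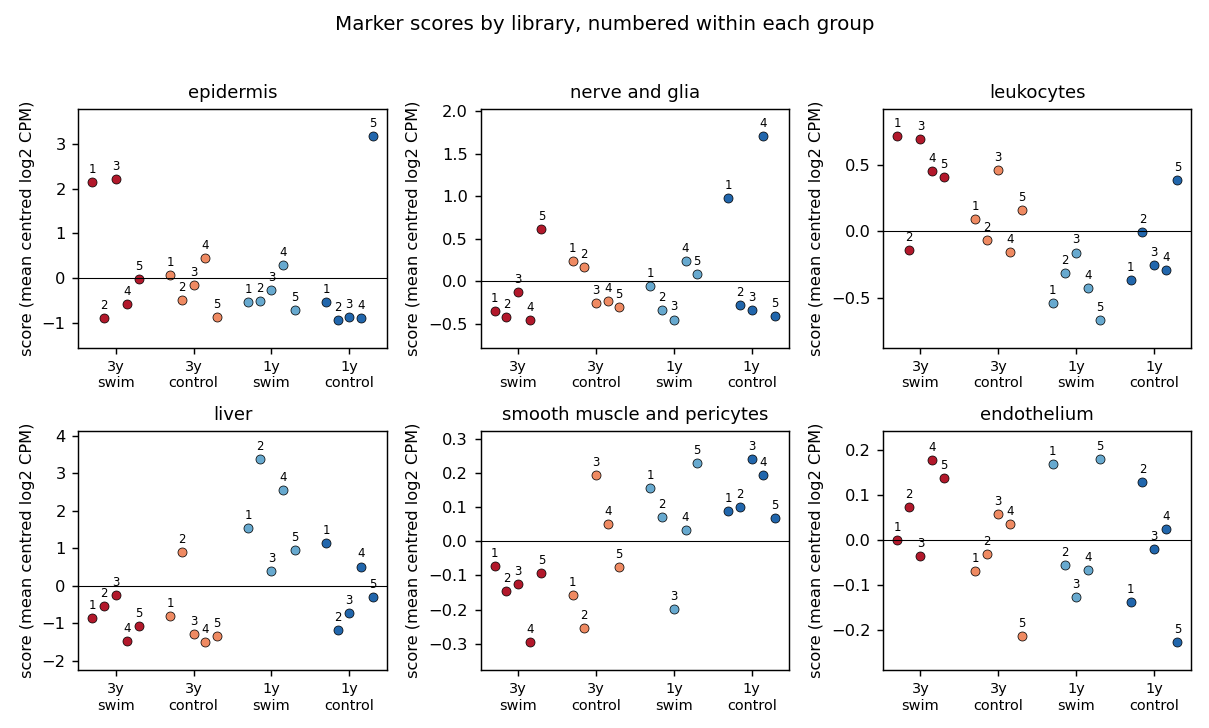
Scores of 6 marker lists (y axis, mean centred log2 CPM of the list's genes) in each of the 20 libraries, in columns for 3y_swim, 3y_control, 1y_swim and 1y_control, with points numbered by library. Epidermis scores stand apart in 3y_swim libraries 1 and 3 (2.14 and 2.21) and 1y_control library 5 (3.17), and nerve scores in 1y_control libraries 1 and 4 (0.98 and 1.70).

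Among the lists of genes examined, those of the circadian clock, mitochondrial chaperones and proteases, and fatty acid oxidation held the most members that passed the test. In the clock list 20 of 45 tested genes passed, in the chaperone and protease list 19 of 40, and in the fatty acid oxidation list 15 of 37, where 6.48% of all genes did. Ribosomal protein genes lay on one side of zero throughout, with a median log2 change of 0.63 and all 81 of 81 above zero.

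**Figure D2:**
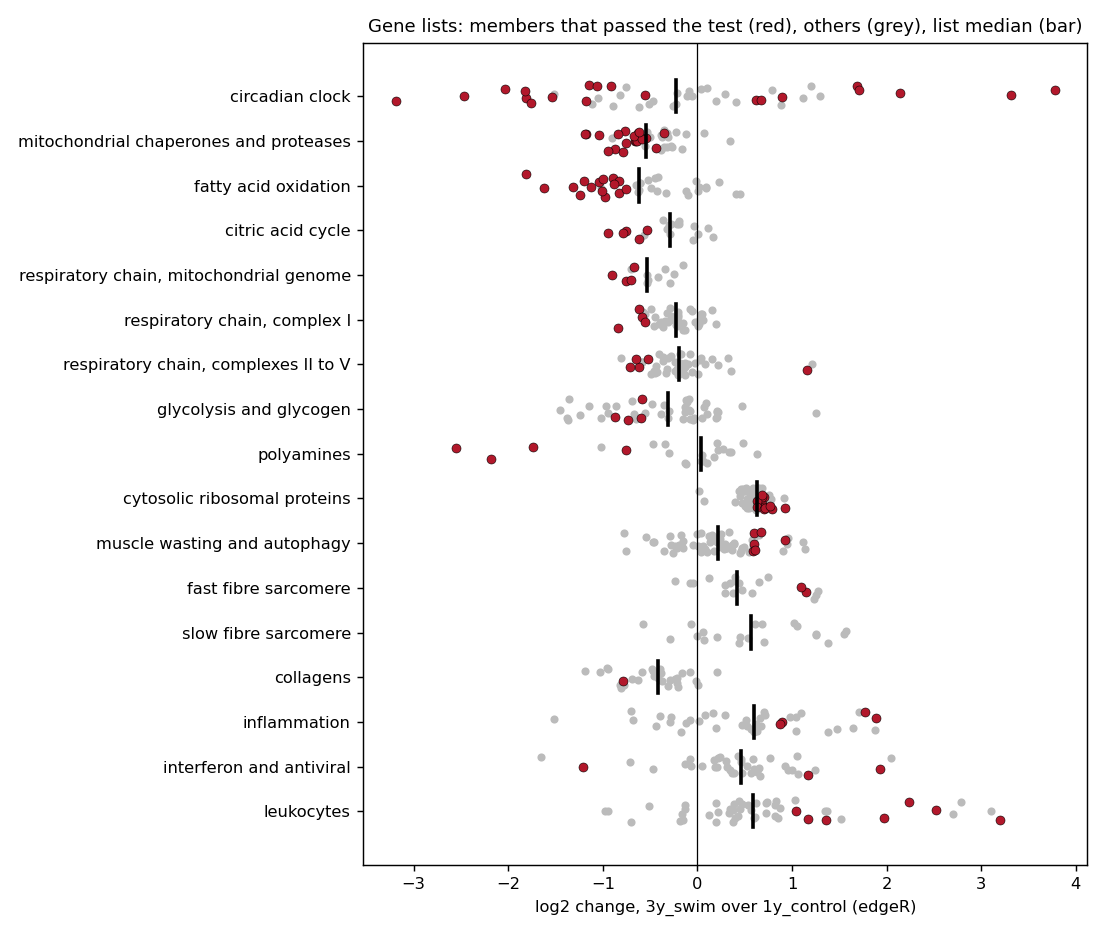
Log2 change in 3y_swim over 1y_control (x axis, edgeR) for every tested member of 17 gene lists (rows), with members that passed the test in red, the others in grey and the list median as a black bar. Members that passed lie on both sides of zero for the clock and only below zero for mitochondrial chaperones and proteases (19) and fatty acid oxidation (15).

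Clock genes changed in both directions: 8 rose and 12 fell, with a list median of -0.23. Genes that rose include the activator-side transcription factors bmal2 and BMAL1 and the cryptochromes cry3a, cry3b and cry4. Those that fell include both PER1 genes, CRY1, CRY2, NR1D1, NR1D2, dbpa, tefa, ciarta and ciartb. The retinoid-related receptors, which activate BMAL genes, split: rorcb rose, while RORA and rorab fell.

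The highest log2 change of the list was that of nfil3-5, a fish member of the NFIL3 family of repressors that compete with DBP-type activators. It had 193, 161, 62.6, 162 and 79.7 CPM in exercised old muscle, 24.7, 40.19, 91.5, 75.8 and 118 CPM in resting old muscle and 3.54, 13.2, 9.03, 11.4 and 10.997 CPM in resting young muscle. Every exercised old library lay above every resting young one, while resting old libraries spread between them and into the exercised old range. The log2 change against resting young muscle was 3.77 ± 0.48 (SE, adjusted p = 0.000255) in edgeR's quasi-likelihood test. NFIL3 itself changed by 2.14 ± 0.45 (SE, adjusted p = 0.00973).

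The opposing activator dbpa, a PAR bZIP factor driven by the clock, had 0.251, 0.447, 0.264, 0.167 and 0.324 CPM in exercised old muscle and 3.80, 2.03, 2.17, 2.73 and 2.59 CPM in resting young muscle. The groups did not overlap, and the change was -3.18 ± 0.34 (SE, adjusted p = 3.62e-05). For rorcb the levels were 51.6, 68.1, 34.7, 52.4 and 13.4 CPM in exercised old muscle and 5.02, 7.85, 2.63, 3.36 and 3.13 CPM in resting young muscle. All 5 exercised old libraries stood above the highest resting young library, and the change was 3.32 ± 0.43 (SE, adjusted p = 0.000325).

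Among the repressors, NR1D2, a REV-ERB receptor that shuts off BMAL transcription, had 11.7, 14.8, 10.9, 12.1 and 7.69 CPM in exercised old muscle and 42.7, 45.5, 40.9, 37.5 and 35.5 CPM in resting young muscle. Exercised old muscle was lower without overlap, with a change of -1.82 ± 0.23 (SE, adjusted p = 0.000215). The PER1 gene with identifier ENSDARG00000012499 had 6.95, 7.18, 3.55, 11.7 and 5.13 CPM in exercised old muscle and 29.8, 29.8, 27.3, 30.9 and 23.5 CPM in resting young muscle, again without overlap, and changed by -2.03 ± 0.31 (SE, adjusted p = 0.00142). A second gene named PER1 (ENSDARG00000056885) changed by -1.81 ± 0.37 (SE, adjusted p = 0.00865) and NR1D1 by -1.76 ± 0.34 (SE, adjusted p = 0.0062). The cryptochrome cry3b, one of the extra cryptochromes of fish, went the other way, with 43.4, 36.1, 48.7, 39.8 and 56.9 CPM in exercised old muscle and 12.3, 14.6, 10.6, 17.3 and 13.9 CPM in resting young muscle. Its groups did not overlap and its change was 1.71 ± 0.20 (SE, adjusted p = 0.000185).

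Against resting old muscle none of the 45 clock genes passed the test in edgeR, with a list median of 0.09. There 12 had an unadjusted p under 0.05 (8 higher, 4 lower) and 1 passed the test in DESeq2. In resting old against resting young muscle 4 rose and 11 fell (33.3%, against 1.19% of all genes in that comparison). For NR1D2 the 2 side values were -0.67 ± 0.22 (SE, adjusted p = 0.352) against resting old and -1.16 ± 0.22 (SE, adjusted p = 0.0161) for resting old against resting young muscle. For rorcb they were 0.17 ± 0.39 (SE, adjusted p = 0.93) and 3.15 ± 0.43 (SE, adjusted p = 0.00154). PER2 and PER3 did not pass: PER2 averaged 11.9 ± 3.29 CPM in exercised old muscle and 21.0 ± 9.39 CPM in resting young muscle (SD, n = 5 each), with an adjusted p of 0.0534 by edgeR, and PER3 27.3 ± 11.97 CPM in exercised old muscle and 42.0 ± 24.6 CPM in resting young muscle, with an adjusted p of 0.397. The list held 5 higher and 8 lower genes without the 3 epidermis-high libraries, and 5 and 11 without the 2 nerve-high ones. A difference in the hour of sampling between the groups cannot be told apart from one of age or exercise, since no time of day is given.

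**Figure D3:**
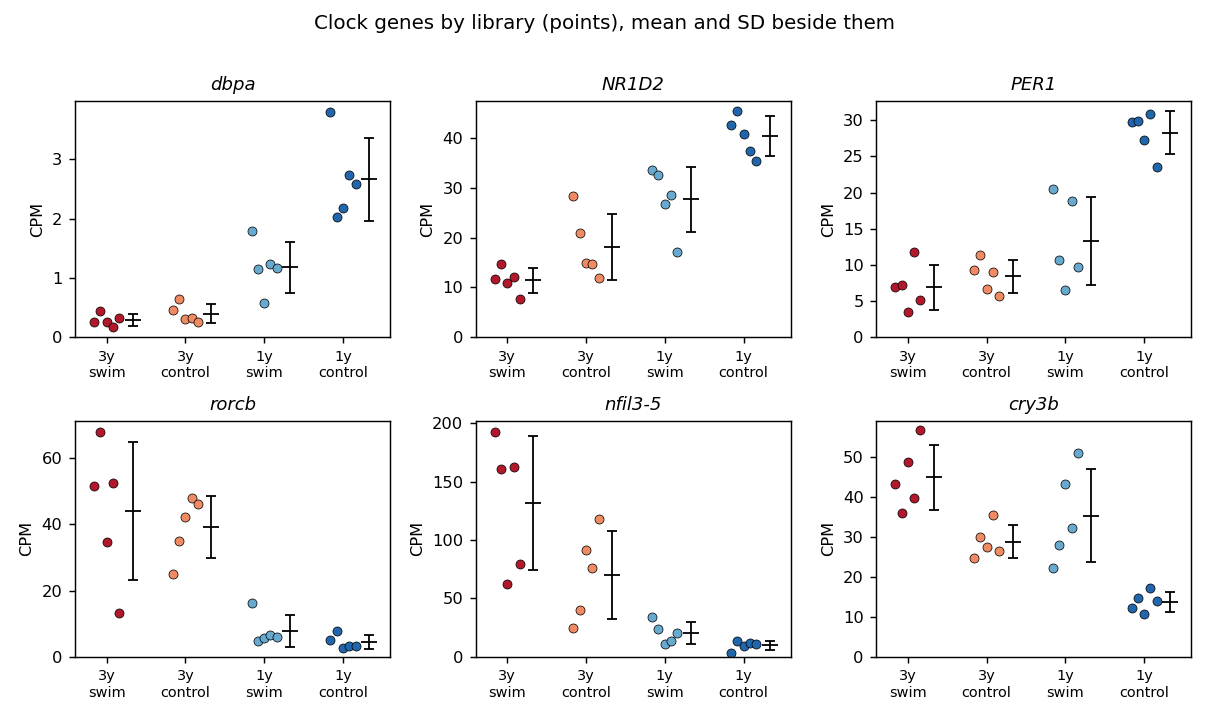
Levels of 6 clock genes (y axis, CPM) in the 5 libraries of each group, with 3y_swim at the left and 1y_control at the right, and mean ± SD beside the points. In each panel the 3y_swim libraries lie wholly above or wholly below the 1y_control libraries.

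Mitochondrial genes were lower across several functional groups. Mitochondrial chaperones, import subunits and proteases fold, move and clear the proteins of the organelle, and 19 of the 40 tested members fell and none rose, with a median log2 change of -0.54 and 38 of 40 below zero. They include HSPA9, the matrix Hsp70 that pulls proteins through the inner membrane, the chaperonin pair HSPD1 and HSPE1, TRAP1, the matrix protease LONP1, afg3l1 of the inner-membrane proteases, and subunits of the TIMM and TOMM import channels. In bulk muscle, fewer cells of a type and less RNA per cell cannot be told apart, which holds for every result here.

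HSPA9 had 96.8, 101, 85.3, 83.7 and 110.4 CPM in exercised old muscle, 193, 135, 146, 148 and 137 CPM in resting old muscle and 185, 208, 210.3, 218 and 156 CPM in resting young muscle. The 5 exercised old libraries were below all others in both resting groups, and the change against resting young muscle was -1.03 ± 0.13 (SE, adjusted p = 0.000186). LONP1 had 10.4, 11.4, 8.22, 13.3 and 15.5 CPM in exercised old muscle and 29.5, 21.4, 33.7, 22.9 and 25.2 CPM in resting young muscle. Its groups did not overlap and the change was -1.17 ± 0.18 (SE, adjusted p = 0.0013), with -1.18 ± 0.18 (SE, adjusted p = 0.0013) for afg3l1. HSPD1 had 21.1, 21.4, 21.0, 22.3 and 25.6 CPM in exercised old, 37.7, 28.4, 37.7, 48.6 and 32.3 CPM in resting old and 35.8, 33.5, 34.8, 39.2 and 32.5 CPM in resting young muscle. Its exercised old libraries overlapped neither resting group, and the change against resting young muscle was -0.66 ± 0.13 (SE, adjusted p = 0.00639).

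For this group the exercised old libraries also stood apart from resting old ones. The list score was -0.49 to -0.37 in exercised old, -0.11 to 0.09 in resting old and -0.14 to 0.24 in resting young libraries, so exercised old libraries overlapped neither. HSPD1 and HSPA9 fell against resting old muscle as well, by 0.73 ± 0.13 and 0.67 ± 0.12 on the log2 scale (SE), though they passed there in only 5 and 2 of the 20 leave-one-out fits. No member passed in resting old against resting young muscle by edgeR, where the list median was -0.12, 7 had an unadjusted p under 0.05 (1 higher, 6 lower) and DESeq2 and voom called 1 each. The count of 19 was 12 without resting young library 4, and 8 in each of the settings without the epidermis-high and without the nerve-high libraries, while the median stayed between -0.67 and -0.48 in all settings.

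Fatty acid oxidation genes fell as well: 15 of 37 passed, all lower, with a median log2 change of -0.62. They cover entry of fatty acids (acsl1b, cpt1ab, CPT2, FABP3), the spiral of beta oxidation (ACADL, ACADM, ACADS, HADHA, HADHB, ACAA2, ECI2, DECR1), electron transfer (ETFA) and carnitine exchange (CRAT), among others. ACAA2, the thiolase that releases acetyl-CoA, had 9.60, 16.5, 18.96, 8.03 and 9.26 CPM in exercised old muscle and 32.9, 37.2, 55.4, 62.8 and 31.3 CPM in resting young muscle. Exercised old libraries lay wholly below resting young ones, and the change was -1.82 ± 0.32 (SE, adjusted p = 0.00452). CPT2, which reforms acyl-CoA inside the mitochondrion, had 17.0, 26.9, 19.3, 15.98 and 16.6 CPM in exercised old muscle and 43.9, 57.0, 47.6, 109.9 and 36.3 CPM in resting young muscle. Its change was -1.62 ± 0.30 (SE, adjusted p = 0.00498), and that of HADHA, a subunit of the trifunctional protein, was -1.20 ± 0.23 (SE, adjusted p = 0.0062). Exercised old muscle was lower than each resting young library for both genes, and resting young library 4 was the highest for both.

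By list median only, resting old muscle lay between. The median was -0.40 for exercised old against resting old and -0.34 for resting old against resting young muscle, with no member past edgeR's test in either. The list scores of single libraries overlapped between all 3 groups. They were -0.69 to -0.24 in exercised old, -0.46 to 0.20 in resting old and -0.35 to 0.62 in resting young libraries. At an unadjusted p under 0.05 there were 14 (1 higher, 13 lower) in the first and 6, all lower, in the second, while DESeq2 called 0 in both and voom 0 and 2. The count of 15 was 6 without resting young library 4, 9 without exercised old library 1, 6 without exercised old library 4 and 9 without exercised old library 5. It was 4 in each of the settings without the epidermis-high and without the nerve-high libraries, where the medians were -0.67 and -0.58.

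In the citric acid cycle 5 of 19 genes fell and none rose (26.3%, against 6.48% of all genes), with a median of -0.29. IDH3A and IDH3G, subunits of the mitochondrial isocitrate dehydrogenase, fell by 0.76 ± 0.16 and 0.61 ± 0.12 on the log2 scale (SE, adjusted p = 0.00939 and 0.00603 by edgeR), and both passed in every leave-one-out fit. The count was 3 without resting young library 3 or 4 and without exercised old library 1, 3, 4 or 5, and 3 without the epidermis-high and without the nerve-high libraries.

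In the nuclear-encoded respiratory chain few genes passed. Of 38 tested complex I genes 4 fell (10.5%), with a median of -0.23, and of 46 genes of complexes II to V 4 fell and 1 rose (10.9%), with a median of -0.20, against 6.48% of all genes. Without the epidermis-high libraries 2 complex I genes passed and without the nerve-high ones 1, and no gene of complexes II to V passed in either setting. NDUFS1, a core complex I subunit, had 353, 477, 387, 317 and 365 CPM in exercised old muscle and 549.7, 673, 734, 868 and 568 CPM in resting young muscle. No exercised old library reached the resting young range, and the change was -0.84 ± 0.17 (SE, adjusted p = 0.00736). SDHA and UQCRC1 of complexes II and III changed by -0.62 and -0.71, and passed in 15 and 16 of the 20 fits. The exception that rose was COX4I2, the alternative cytochrome oxidase subunit that in mammals is induced at low oxygen, with 13.8 ± 2.92 CPM in exercised old muscle and 6.18 ± 1.07 CPM in resting young muscle and a change of 1.15 ± 0.25 (SE, adjusted p = 0.0121). The complex I count was 2 without resting young library 2, 3 or 4 or exercised old library 1, 4 or 5, and 7 without exercised young library 3. Lower genes of complexes II to V numbered 0 without resting young library 3 or 4 or exercised old library 1 or 4, and 1 without exercised old library 5. They numbered 2 without resting young library 1 or 2, exercised young library 1 or exercised old library 3, and 7 without exercised young library 3.

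All 13 protein genes encoded in mitochondrial DNA were below zero, 4 of them past the test (MT-ND1, MT-ND2, MT-ND5 and mt-atp8), with a median of -0.53. These 4 are 30.8% of the list, against 6.48% of all genes. MT-ND1 had 2093, 2533, 2545, 2020.0 and 2719 CPM in exercised old muscle and 3923, 3914, 4929, 5653 and 3799.9 CPM in resting young muscle. Each exercised old library was below each resting young one, and the change was -0.90 ± 0.17 (SE, adjusted p = 0.00547). The share of all counts in these 13 protein genes of the mitochondrial genome was 9.20%, 9.66%, 9.81%, 7.98% and 9.75% in exercised old libraries. In resting young libraries it was 11%, 10.9%, 13.7%, 15.9% and 13.8%. The groups did not overlap. The mean was 9.28% ± 0.766 in exercised old and 13.04% ± 2.11 in resting young libraries (SD, n = 5 each); they differed by -3.77 percentage points, with a 2-sided exact permutation p of 0.00794, the smallest that 5 against 5 allow. The 5 resting old libraries had 15.2%, 11%, 11.5%, 11% and 9.10%, a range that reached into both groups. Only 1 mitochondrial gene passed without resting young library 4 and 2 without exercised old library 4, and 1 without the epidermis-high or the nerve-high libraries.

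**Figure D4:**
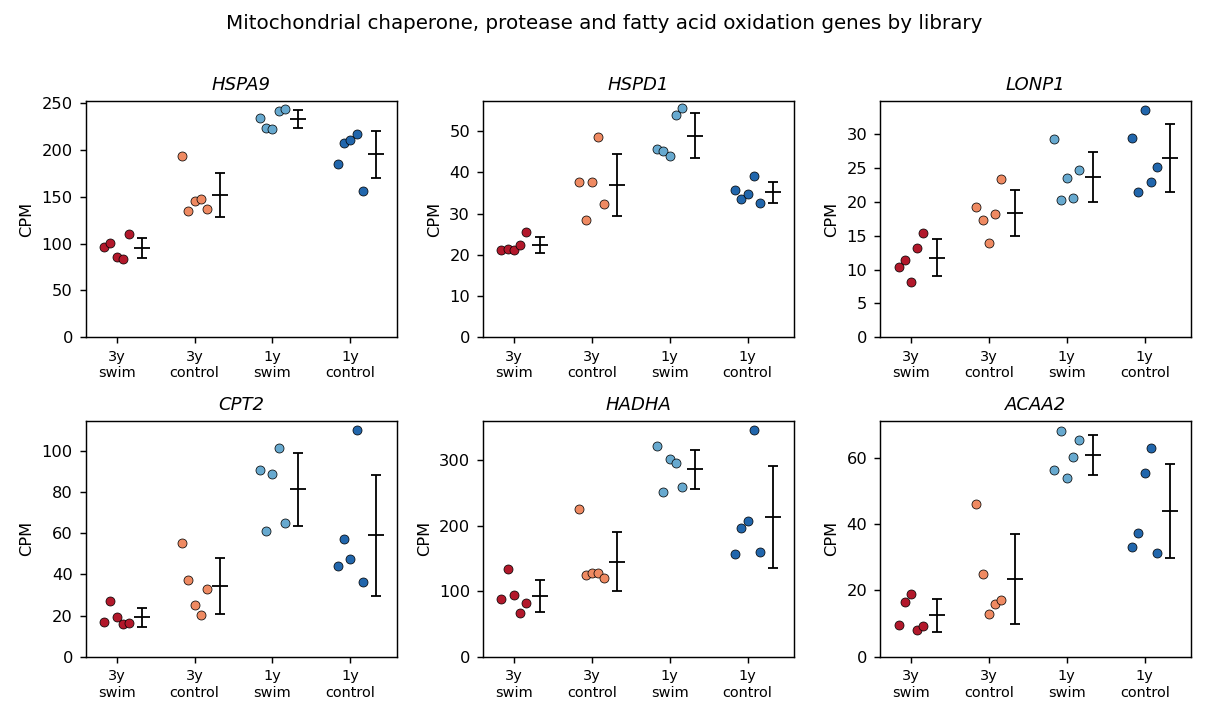
Levels of 6 mitochondrial genes (y axis, CPM) by library in 3y_swim, 3y_control, 1y_swim and 1y_control muscle, with mean ± SD. The 3y_swim libraries are below all 1y_control libraries in each panel. For HSPA9 and HSPD1 they are also below all 3y_control libraries.

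Of 34 tested genes that build and divide mitochondria 3 fell and none rose (8.82%, against 6.48% of all genes). On the log2 scale PRKAG1, a subunit of the energy sensor AMPK, fell by 0.63 ± 0.14 and DNM1L, the fission GTPase, by 0.59 ± 0.14. The third, pprc1, a coactivator related to PGC-1, fell by 0.86 ± 0.21, passing in 17 of the 20 fits. Without exercised young library 3, 4 fell and 1 rose. The count was 0 without the epidermis-high and 1 without the nerve-high libraries. PPARGC1A, the main coactivator of mitochondrial biogenesis, averaged 8.77 ± 10.1 CPM in exercised old muscle and 13.4 ± 12.6 CPM in resting young muscle and did not pass, with a log2 difference of -0.61 ± 0.87 (SE, adjusted p = 0.733).

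Among polyamine genes AMD1, the S-adenosylmethionine decarboxylase that supplies the aminopropyl groups of spermidine and spermine, had 21.6, 18.9, 22.6, 18.9 and 24.5 CPM in exercised old muscle, 45.5, 53.7, 46.5, 68.3 and 52.8 CPM in resting old muscle and 66.5, 51.4, 90.2, 77.0 and 69.6 CPM in resting young muscle. Exercised old libraries lay below every library of both resting groups. The change was -1.74 ± 0.16 (SE, adjusted p = 9.41e-06) against resting young and -1.32 ± 0.15 (SE, adjusted p = 0.00081) against resting old muscle, and both passed in every leave-one-out fit. Resting old against resting young muscle gave -0.41 ± 0.15 (SE, adjusted p = 0.187).

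The other polyamine genes that fell did not pass against resting old muscle. The antizyme oaz2b, an inhibitor of ornithine decarboxylase, had 1.42, 4.89, 2.08, 1.17 and 4.62 CPM in exercised old muscle and 15.9, 5.80, 23.4, 26.7 and 11.3 CPM in resting young muscle. Its groups did not overlap, its change was -2.55 ± 0.51 (SE, adjusted p = 0.00728), and against resting old muscle it was -0.29 ± 0.49 (SE, adjusted p = 0.899). ARG2, the mitochondrial arginase that makes ornithine, had 27.3, 34.1, 17.1, 22.2 and 75.2 CPM in exercised old muscle and 161, 60.0, 90.6, 250.2 and 236 CPM in resting young muscle. Its groups overlapped, and it passed in 16 of the 20 fits with a change of -2.18 ± 0.55 (SE, adjusted p = 0.0238). ODC1, ornithine decarboxylase itself, averaged 2.28 ± 1.07 CPM in exercised old muscle and 4.63 ± 5.46 CPM in resting young muscle with an adjusted p of 0.348 by edgeR. In all, 4 of 22 polyamine genes fell and none rose (18.2%, against 6.48% of all genes), with a median of 0.04. The count was 2 without resting young library 4 or exercised old library 1, 3 or 4, and 1 without the epidermis-high or the nerve-high libraries.

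XPO1 and CD82 also differed between exercised old muscle and both resting groups. XPO1, the exportin that carries proteins out of the nucleus, had 38.9, 35.3, 32.8, 45.1 and 47.8 CPM in exercised old, 14.0, 26.2, 21.2, 15.4 and 17.7 CPM in resting old and 22.7, 19.7, 14.5, 16.4 and 22.0 CPM in resting young muscle. All exercised old libraries were above all resting ones, with a change of 1.07 ± 0.19 (SE, adjusted p = 0.00452) against resting young and 1.08 ± 0.19 (SE, adjusted p = 0.0368) against resting old muscle, the second in 6 of the 20 fits. Exercised young libraries had 32.3, 30.2, 34.5, 20.6 and 37.3 CPM and overlapped the exercised old ones. A second exportin gene, xpo1a, did not pass, with a log2 difference of -0.29 ± 0.14 (SE, adjusted p = 0.243). CD82, a tetraspanin of the cell membrane (ENSDARG00000019098), had 44.0, 51.1, 46.4, 64.8 and 56.7 CPM in exercised old muscle, 32.2, 24.8, 30.7, 24.1 and 25.2 CPM in resting old muscle and 28.8, 21.8, 19.3, 19.2 and 23.2 CPM in resting young muscle. Exercised old libraries overlapped neither resting group, and the change against resting young muscle was 1.23 ± 0.17 (SE, adjusted p = 0.000477). Against resting old muscle it was 0.94 ± 0.17 (SE, adjusted p = 0.0368), passing in 8 of the 20 fits. The other gene named CD82 (ENSDARG00000026070) had a log2 difference of 0.52 ± 0.26 (SE, adjusted p = 0.25) and did not pass.

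The fast myosin heavy chain myhz2 was placed differently. It had 249, 48.5, 294, 303 and 377 CPM in exercised old, 35.8, 33.6, 79.6, 59.3 and 43.7 CPM in resting old and 262, 255, 285, 197 and 168 CPM in resting young muscle. Of the exercised old libraries 4 lay within or above the resting young range and 1, library 2, was within the resting old range. The log2 difference against resting young muscle was 0.12 ± 0.35 (SE, adjusted p = 0.88) by edgeR, and its sign turned in 4 of the other settings. Against resting old muscle it was 2.33 ± 0.37 (SE, adjusted p = 0.0368), passing in 12 of the 20 fits, and for resting old against resting young muscle -2.21 ± 0.37 (SE, adjusted p = 0.00945). Reads of near-identical myosin genes may have been split between them, as the counting rule for such reads is not given.

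**Figure D5:**
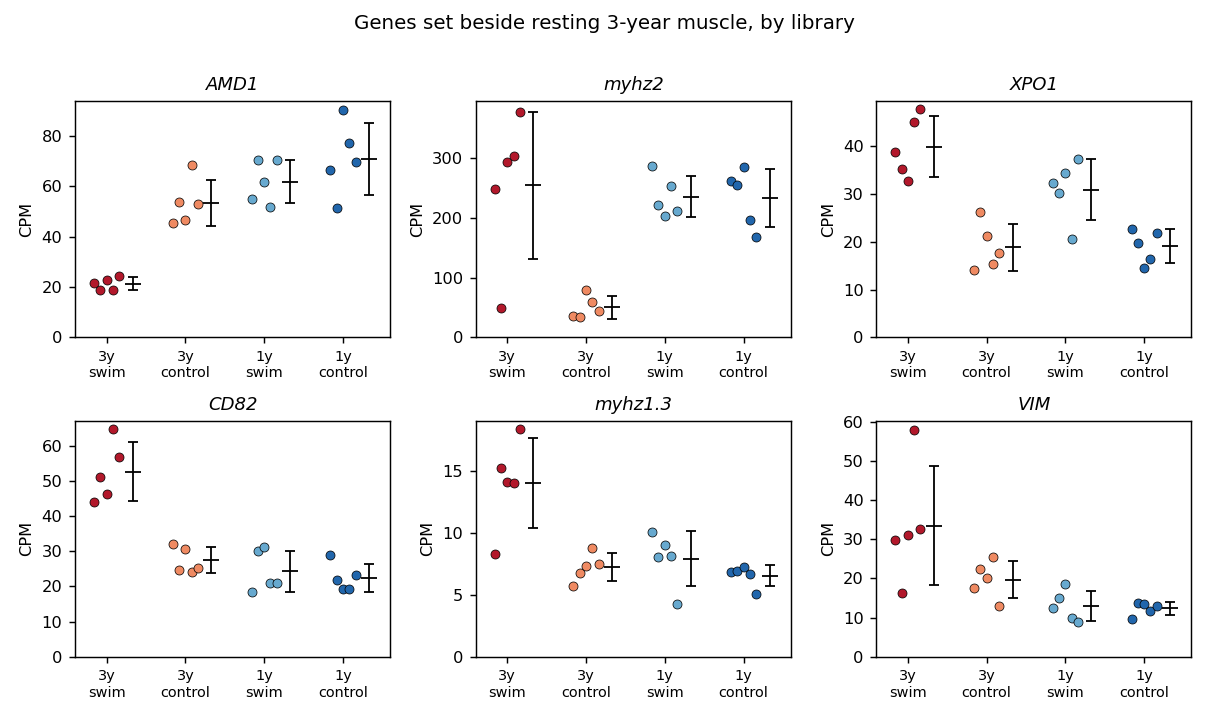
Levels of 6 genes (y axis, CPM) by library in 3y_swim, 3y_control, 1y_swim and 1y_control muscle, with mean ± SD. For AMD1, XPO1 and CD82 the 3y_swim libraries lie apart from both resting groups, while myhz2 is low in 3y_control and in 1 of the 5 3y_swim libraries.

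All 81 cytosolic ribosomal protein genes had a positive change, with a median of 0.63, and 12 passed the test (14.8%, against 6.48% of all genes). The median was 0.49 without TMM scaling, and it stayed between 0.49 and 0.73 in all settings, so its direction did not depend on the scaling. RPL19 had 708, 408, 1039, 891 and 658 CPM in exercised old muscle and 380.1, 469, 363, 352 and 378 CPM in resting young muscle. The groups overlapped only through 1 resting young library, and the change was 0.93 ± 0.25 (SE, adjusted p = 0.0308). The value for RPS14 was 0.76 ± 0.20 (SE, adjusted p = 0.0309). RPL19 and RPS14 each passed in 14 of the 20 fits. The ribosomal count was fragile: 0 without resting young library 1, 3 or 4 or exercised old library 1 or 4, 2 to 7 without resting young library 5, exercised young library 2, resting old library 3 or exercised old library 3 or 5, 37 without exercised old library 2 and 69 without exercised young library 3. It was 0 without the epidermis-high and without the nerve-high libraries, where the medians were 0.64 and 0.55. By list median only, resting old muscle lay between, with 0.27 for exercised old against resting old and 0.36 for resting old against resting young muscle. In both, edgeR, DESeq2 and voom called 0 genes. At an unadjusted p under 0.05 there were 0 in the first and 13, all higher, in the second. List scores overlapped, at -0.24 to 0.73 in exercised old, -0.30 to 0.23 in resting old and -0.43 to -0.16 in resting young libraries.

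Among growth signalling genes, the translation repressor EIF4EBP3, which binds the cap-binding protein eIF4E, had 33.5, 23.7, 54.5, 66.1 and 41.4 CPM in exercised old muscle and 9.40, 18.0, 11.6, 15.97 and 23.6 CPM in resting young muscle. No library of one group reached the other, and the change was 1.48 ± 0.32 (SE, adjusted p = 0.0124). DEPTOR, an inhibitor within the mTOR complexes, had 3.78, 4.62, 5.11, 4.03 and 8.15 CPM in exercised old muscle and 14.0, 6.75, 12.4, 16.3 and 18.6 CPM in resting young muscle. Its groups overlapped slightly and its change was -1.40 ± 0.26 (SE, adjusted p = 0.00519). The growth factor igf2b averaged 10.5 ± 2.61 CPM in exercised old muscle and 5.02 ± 1.22 CPM in resting young muscle, without overlap, with a change of 1.07 ± 0.22 (SE, adjusted p = 0.00797). Of 64 tested genes of insulin, IGF and mTOR signalling 2 rose and 4 fell (9.38%, against 6.48% of all genes), with a median of -0.04. The total of 6 was 3 without resting young library 3 or 4 or exercised old library 1, 3 or 4, and 1 without the epidermis-high or the nerve-high libraries. IGF1 and the myostatin gene mstnb did not pass, with log2 differences of -1.15 ± 0.44 (SE, adjusted p = 0.121) and -0.65 ± 0.38 (SE, adjusted p = 0.325).

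Of 66 muscle wasting and autophagy genes 6 rose and none fell (9.09%, against 6.48% of all genes), with a median of 0.22. FOXO4, a transcription factor of the atrophy programme, had 29.3, 26.6, 26.4, 32.2 and 25.3 CPM in exercised old muscle, 27.8, 37.7, 31.6, 31.0 and 31.8 CPM in resting old muscle and 13.7, 22.9, 17.8, 19.6 and 18.4 CPM in resting young muscle. Exercised old and resting young libraries did not overlap, and the change was 0.60 ± 0.14 (SE, adjusted p = 0.0185), passing in 19 of the 20 fits. ATG14, which targets the lipid kinase of autophagy, and nbr1a, a receptor for autophagy cargo, changed by 0.60 ± 0.12 (SE, adjusted p = 0.00973) and 0.58 ± 0.12 (SE, adjusted p = 0.00817). The ubiquitin ligases most used as atrophy markers did not pass: FBXO32 averaged 78.0 ± 50.2 CPM in exercised old muscle and 35.6 ± 36.9 CPM in resting young muscle, with an adjusted p of 0.372 by edgeR, and trim63a and trim63b had log2 differences of 0.54 and 0.29 with adjusted p of 0.299 and 0.614. The count of 6 was 3 without resting young library 3 or exercised old library 3, 2 without exercised old library 4, 1 without the epidermis-high and 0 without the nerve-high libraries. None passed against resting old muscle by edgeR, where 1 had an unadjusted p under 0.05 and DESeq2 and voom called 0. In resting old against resting young muscle 5 rose and none fell (7.58%, against 1.19% of all genes in that comparison, 0.658% higher). Of 45 proteasome genes, which encode the machine that degrades ubiquitin-tagged proteins, none passed by edgeR, with a median of -0.08, where 1 had an unadjusted p under 0.05, DESeq2 called 1 and voom 1. In edgeR 1 rose without resting young library 5, exercised young library 3, resting old library 1 or 2 or exercised old library 1 or 2.

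An ankyrin-repeat and SOCS-box adaptor of ubiquitin ligases, a family with several members enriched in muscle, was among the highest genes. ASB15 (ENSDARG00000045863) had 16.4, 19.5, 8.60, 30.7 and 4.86 CPM in exercised old and 0.986, 1.08, 1.101, 3.72 and 1.19 CPM in resting young muscle. Each exercised old library was above each resting young one, and the change was 3.31 ± 0.61 (SE, adjusted p = 0.00519). It was 0.27 ± 0.55 (SE, adjusted p = 0.915) against resting old muscle.

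In the contractile apparatus 2 of 20 fast-fibre sarcomere genes rose and none fell, where 6.48% of all genes passed, with a median of 0.42. Both are fast myosin heavy chains. myhz1.3 had 8.31, 15.3, 14.2, 14.0 and 18.4 CPM in exercised old, 5.69, 6.76, 7.34, 8.80 and 7.54 CPM in resting old and 6.88, 6.92, 7.25, 6.71 and 5.11 CPM in resting young muscle. Exercised old libraries were above all resting young ones, with a change of 1.09 ± 0.21 (SE, adjusted p = 0.0062). For myhz1.1 the change was 1.15 ± 0.28 (SE, adjusted p = 0.0198), with overlap, passing in 19 of the 20 fits. The count was 1 without exercised old library 4, 2 without the epidermis-high and 1 without the nerve-high libraries. None of 20 slow-fibre genes passed by edgeR, DESeq2 or voom or had an unadjusted p under 0.05 in edgeR, and their median of 0.57 was -0.41 without the 3 epidermis-high libraries. GAMT, which makes creatine, averaged 201 ± 39.2 CPM in exercised old muscle and 101 ± 38.4 CPM in resting young muscle and changed by 0.99 ± 0.24 (SE, adjusted p = 0.0211), and CKMT2, the mitochondrial creatine kinase, averaged 2075 ± 605 CPM in exercised old muscle and 3811 ± 709 CPM in resting young muscle with overlap and changed by -0.88 ± 0.25 (SE, adjusted p = 0.0427). They passed in 17 and 9 of the 20 fits, and neither passed without the epidermis-high or the nerve-high libraries.

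Of 40 genes of muscle stem cells and regeneration 2 rose and 1 fell, with a median of -0.02. This share of 7.5% was near the 6.48% of all genes, and the count was 2 without the epidermis-high and 1 without the nerve-high libraries. VIM, vimentin, an intermediate filament of immature muscle and of connective tissue cells, had 29.8, 16.2, 31.1, 57.8 and 32.5 CPM in exercised old muscle and 9.71, 13.8, 13.6, 11.6 and 13.003 CPM in resting young muscle. Its groups did not overlap and its change was 1.44 ± 0.27 (SE, adjusted p = 0.00528). MYOG, the factor that drives muscle differentiation and responds to loss of nerve supply, averaged 5.05 ± 2.23 CPM in exercised old muscle and 2.05 ± 0.924 CPM in resting young muscle and changed by 1.297 ± 0.37 (SE, adjusted p = 0.044), passing in 8 of the 20 fits. NCAM1, a cell adhesion molecule of nerve and muscle, averaged 0.712 ± 0.256 CPM in exercised old muscle and 2.13 ± 0.308 CPM in resting young muscle and fell by 1.57 ± 0.27. At the neuromuscular junction musk, the receptor kinase that gathers acetylcholine receptors, changed by -0.85 ± 0.25 (SE, adjusted p = 0.0489) and passed in 6 of the 20 fits. Nerve and glia markers themselves summed to 446 to 666 CPM in exercised old and 565 to 935 CPM in resting young muscle. None of 27 passed by edgeR, where 5 had an unadjusted p under 0.05, all lower, and DESeq2 and voom called 1 each. Without resting young library 5 or resting old library 1, 1 fell, and without exercised old library 5, 2 fell. Their median of -0.87 was 1.07 without the 2 nerve-high libraries.

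Of 39 inflammation genes 4 rose and none fell (10.3%, against 6.48% of all genes), with a median of 0.60: the chemokine ccl19a.1 and the cytokines il15, il34 and tnfb. ccl19a.1 had 12.2, 10.5, 20.5, 28.6 and 16.7 CPM in exercised old muscle and 4.03, 7.21, 2.51, 6.71 and 5.50 CPM in resting young muscle. Levels stood apart between the groups, and the change was 1.77 ± 0.42 (SE, adjusted p = 0.0194), passing in 18 of the 20 fits. The complement gene c6.1 had 14.7, 8.99, 14.3, 61.2 and 31.8 CPM in exercised old muscle and 5.48, 7.14, 5.32, 5.59 and 4.23 CPM in resting young muscle. It was higher in every exercised old than in any resting young library, with a change of 2.24 ± 0.45 (SE, adjusted p = 0.00746). Of 50 leukocyte markers 7 rose (14.0%, against 6.48% of all genes), with a median of 0.58. Summed levels over the whole list were 414 to 708 CPM (median 599) in exercised old and 274 to 722 CPM (median 295) in resting young muscle. Resting young library 5, the epidermis-high one, held the highest value of its group. The leukocyte count was 3 or 4 without resting young library 1, 2, 3 or 4 or exercised old library 1 or 3, 15 without resting young library 5 and 12 without exercised old library 2. It was 2 without the epidermis-high and 0 without the nerve-high libraries. Without the epidermis-high libraries no inflammation gene passed and the median was 0.20, and without the nerve-high ones no gene passed and the median was 0.51. The inflammation count was 0 without resting young library 3 or exercised old library 4, 1 or 2 without resting young library 1 or 4 or exercised old library 1, and 7 without exercised old library 2.

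Among 39 interferon and antiviral genes 2 rose and 1 fell, with a median of 0.46, a share of 7.69% that was near the 6.48% of all genes. The proteasome subunit gene psmb13a and IRF8, a factor of myeloid and lymphoid cells, rose by 1.93 ± 0.51 and 1.17 ± 0.32 on the log2 scale, passing in 14 and 13 of the 20 fits. Below zero were 7 of the 39, and 1 of them passed the test. This was mavs, the mitochondrial adaptor of antiviral RNA sensing. It had 16.3, 12.5, 11.7, 9.42 and 16.8 CPM in exercised old muscle and 30.4, 36.4, 34.2, 25.5 and 28.3 CPM in resting young muscle. All exercised old libraries were below all resting young ones, and the change was -1.21 ± 0.18 (SE, adjusted p = 0.0013), against -1.05 ± 0.18 (SE, adjusted p = 0.0116) in resting old against resting young muscle. The list gave 4 higher and 1 lower without resting old library 1. It gave 10 higher and 1 lower without the epidermis-high libraries and 14 higher and 1 lower without resting young library 5 alone. It gave 0 higher and 1 lower without the nerve-high libraries and without resting young library 1, 2, 3 or 4 or exercised old library 4.

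In the list of heat shock and ER stress genes 5 of 71 fell and 1 rose (8.45%, against 6.48% of all genes), with a median of -0.11, and 3 passed without the epidermis-high and 2 without the nerve-high libraries. The gene that rose, nupr1a, a small chromatin protein induced by cell stress, had 32.4, 47.4, 45.3, 115 and 29.4 CPM in exercised old muscle and 7.50, 8.24, 8.02, 12.01 and 8.91 CPM in resting young muscle. The groups did not overlap, and exercised old library 4 was the highest, with a change of 2.59 ± 0.37 (SE, adjusted p = 0.000875). PHLDA3, a p53 target that restrains AKT, had 8.83, 7.70, 10.3, 23.5 and 12.8 CPM in exercised old muscle and 4.82, 3.33, 5.35, 4.41 and 6.51 CPM in resting young muscle. Its groups did not overlap and its change was 1.37 ± 0.27 (SE, adjusted p = 0.00703), against 1.15 ± 0.27 (SE, adjusted p = 0.0424) in resting old against resting young muscle. MCM7, a subunit of the replicative helicase, was the 1 gene of 53 cell cycle genes that passed (1.89%, against 6.48% of all genes). It had 10.1 ± 4.05 CPM in exercised old and 2.80 ± 0.724 CPM in resting young muscle and changed by 1.85 ± 0.35 (SE, adjusted p = 0.00547). In the cell cycle list 1 other gene fell as well without resting young library 2, exercised young library 3 or 5 or resting old library 1. In the settings without the epidermis-high and without the nerve-high libraries the cell cycle count stayed at 1. The senescence marker cdkn1a did not pass, with a log2 difference of 0.63 ± 0.39 (SE, adjusted p = 0.367). Among the 5 heat shock and ER stress genes that fell, ASNS, asparagine synthetase, and HSF2, a heat shock factor, had changes of -1.37 ± 0.22 (SE, adjusted p = 0.00222) and -0.85 ± 0.18 (SE, adjusted p = 0.0112).

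Of the 47 tested glycolysis and glycogen genes 36 were below zero, with a median log2 change of -0.31, and few genes of sugar handling passed the test. PFKFB2, which sets fructose 2,6-bisphosphate, had 7.70, 17.4, 11.04, 19.4 and 19.3 CPM in exercised old muscle and 27.5, 37.5, 60.1, 53.8 and 32.6 CPM in resting young muscle. Levels stood wholly lower in exercised old muscle, and the change was -1.50 ± 0.27 (SE, adjusted p = 0.00456), with -0.13 ± 0.26 (SE, adjusted p = 0.912) against resting old muscle. SLC16A3, a lactate exporter, had 94.6, 101, 82.1, 71.7 and 127 CPM in exercised old muscle and 37.5, 38.0, 37.1, 54.1 and 68.7 CPM in resting young muscle. It was higher in exercised old muscle without overlap, with a change of 1.01 ± 0.30 (SE, adjusted p = 0.0489), passing in 7 of the 20 fits, while SLC16A1, a transporter for lactate and pyruvate, changed by -1.54 ± 0.41 (SE, adjusted p = 0.0317) and passed in 12. PFKFB4 and both PDK2 genes, which are known to respond to fuel and oxygen supply, did not pass. Of 47 glycolysis and glycogen genes 4 fell (8.51%, against 6.48% of all genes), among them the hexokinases HK1 and HK2 with changes of -0.59 ± 0.14 (SE, adjusted p = 0.0218) and -0.73 ± 0.20 (SE, adjusted p = 0.0367), passing in 17 and 13 of the 20 fits, and none passed without the epidermis-high or the nerve-high libraries. The glycolysis count was 0 without resting young library 4 or exercised old library 3, 1 without resting young library 2 or 3 or exercised old library 1 or 4, and 2 without exercised old library 5.

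Of 53 genes of cholesterol and fatty acid synthesis 4 fell and none rose (7.55%, against 6.48% of all genes), with a median of -0.33. GPAM, the first enzyme of glycerolipid synthesis, averaged 10.9 ± 4.01 CPM in exercised old muscle and 30.4 ± 10.4 CPM in resting young muscle and changed by -1.48 ± 0.32 (SE, adjusted p = 0.0119). HMGCS1 and PMVK of the mevalonate pathway changed by -0.93 ± 0.23 (SE, adjusted p = 0.0212) and -1.45 ± 0.35 (SE, adjusted p = 0.0206), passing in 16 and 18 of the 20 fits. The count was 2 without resting young library 3 or 4, 1 without the epidermis-high and 0 without the nerve-high libraries. Without resting old library 1, 6 fell and 1 rose. In the hypoxia and angiogenesis list 2 of 45 rose, ERO1A and BNIP3, and 3 fell, led by flt1, a VEGF receptor, at -0.77 ± 0.16 (SE, adjusted p = 0.0111). These counts are to be read against the 6.48% of all genes that passed. Their total was 2 without resting young library 1 or 3 or exercised old library 1, 3 or 4, and 3 without resting young library 4. It was 1 without the epidermis-high and 1 without the nerve-high libraries. The VEGFA genes ENSDARG00000103542 and ENSDARG00000034700 had log2 differences of -0.0039 ± 0.31 (SE, adjusted p = 0.996) and -0.17 ± 0.15 (SE, adjusted p = 0.548) and did not pass.

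Collagen genes were mostly below zero, 27 of 29, with a median of -0.41. Only col15a1b, a basement membrane collagen, passed by edgeR (3.45%, against 6.48% of all genes). At an unadjusted p under 0.05 there were 12, all lower, and DESeq2 and voom called 6 each. The level of col15a1b was 8.59 ± 1.21 CPM in exercised old and 14.8 ± 2.49 CPM in resting young muscle, with a change of -0.78 ± 0.15 (SE, adjusted p = 0.00696). The fibrillar collagen col1a1a averaged 453 ± 203 CPM in exercised old muscle and 1035 ± 413 CPM in resting young muscle and did not pass, with an adjusted p of 0.138 by edgeR. COL1A2, its partner in type I collagen, averaged 432 ± 188 CPM in exercised old muscle and 828 ± 262 CPM in resting young muscle and had an adjusted p of 0.203. The collagen list median was 0.11 for exercised old against resting old muscle, with 21 of 29 above zero, and -0.63 for resting old against resting young muscle. No collagen passed by edgeR in either. In resting old against resting young muscle 14 had an unadjusted p under 0.05, all lower, and DESeq2 called 8 and voom 12. Against resting old muscle 1 had an unadjusted p under 0.05 and DESeq2 and voom called 0. Fibroblast markers summed to 914 to 2070 CPM in exercised old and 2050 to 4000 CPM in resting young muscle, a sum that includes col1a1a and COL1A2. Over its 20 genes the fibroblast list had a median of 0.15 with 11 above zero. The 1 gene that passed (5.0%, against 6.48% of all genes), the complement protease gene c1s.1, rose by 1.34 ± 0.26 (SE, adjusted p = 0.0062). The collagen count was 2 without resting young library 5, resting old library 1 or exercised old library 2, 5 without exercised old library 5, 0 without the epidermis-high and 1 without the nerve-high libraries. Without exercised old library 5, 1 fibroblast marker rose and 2 fell, and the fibroblast count was 1 without the epidermis-high and 0 without the nerve-high libraries. None of 52 genes of other matrix proteins and crosslinking passed by edgeR, where 8 had an unadjusted p under 0.05 (3 higher, 5 lower), DESeq2 called 1 and voom 4, and 1 rose in the fits without resting young library 2 or 5.

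Of 16 smooth muscle and pericyte markers 3 fell (18.8%, against 6.48% of all genes). Scores of the list ran from -0.29 to -0.07 in exercised old libraries, against 0.07 to 0.24 in resting young ones, without overlap. Their summed level was 246 to 280 CPM in exercised old and 317 to 419 CPM in resting young muscle. Among 25 endothelial markers 2 rose and 1 fell, where 6.48% of all genes passed. Summed levels of the 25 were 326 to 445 CPM in exercised old and 298 to 395 CPM in resting young muscle. The smooth muscle count was 0 or 1 without resting young library 3 or 4 or exercised old library 1, 3 or 4, and the endothelial count 1 without resting young library 3 or 4 or exercised old library 4. Without the epidermis-high libraries they were 0 and 1, and without the nerve-high libraries 1 and 0. In resting old against resting young muscle 1 endothelial marker rose and 2 fell, where 1.19% of all genes passed. The smooth muscle list had 2 lower genes there and none higher.

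The remaining genes at the extremes of the comparison belong to no single list. The lowest of those the naming rule takes was ccdc136a, which encodes a coiled-coil protein, with 1.52, 11.4, 2.67, 1.81 and 8.20 CPM in exercised old muscle, 70.6, 6.32, 7.17, 20.9 and 7.62 CPM in resting old muscle and 57.3, 63.5, 50.1, 117 and 68.4 CPM in resting young muscle. Exercised old libraries lay below every resting young one, and the change was -3.80 ± 0.69 (SE, adjusted p = 0.0048). AHSA1, an activator of the HSP90 ATPase, changed by -2.38 ± 0.56 (SE, adjusted p = 0.0187), prodha, proline dehydrogenase, by -2.31 ± 0.58 (SE, adjusted p = 0.0247), GLS2 (ENSDARG00000069095), a glutaminase, by -2.08 ± 0.52 (SE, adjusted p = 0.0242), CLEC3B, tetranectin, by -2.13 ± 0.58 (SE, adjusted p = 0.0335) and slc25a47b, a mitochondrial carrier, by -2.01 ± 0.38 (SE, adjusted p = 0.00532). Of these, slc25a47b passed in all 20 leave-one-out fits, AHSA1 in 19, GLS2 in 16, prodha in 15 and CLEC3B in 14.

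At the other end, SLC25A32 (ENSDARG00000089791), a mitochondrial folate carrier, had 19.4, 31.4, 13.2, 36.5 and 13.1 CPM in exercised old muscle and 2.98, 6.33, 3.64, 7.24 and 4.68 CPM in resting young muscle. The groups did not overlap and the change was 2.19 ± 0.35 (SE, adjusted p = 0.00222). YPEL3, a small zinc-binding protein linked in human cells to growth arrest, changed by 2.25 ± 0.30 (SE, adjusted p = 0.000395), and both passed in every leave-one-out fit. The TRIM-family gene btr24, the glutathione transferase gstk2 and the chemokine ccl34b.4 changed by 3.25 ± 0.84 (SE, adjusted p = 0.0278), 3.14 ± 0.81 (SE, adjusted p = 0.0278) and 1.804 ± 0.42 (SE, adjusted p = 0.0178), and passed in 15, 14 and 19 of the 20 fits.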

How the data were processed

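Raw whole-number counts per Ensembl gene were deposited by the authors for 20 libraries of total RNA (TruSeq RNA kit v2, per the labels' protocols). Per the submitters' processing notes the tools were featureCounts 1.4.6-p4, STAR 2.4.1d and bcl2fastq 1.8.4, on the build GRCz10; annotation release, strand setting and multi-mapping are not given in the sources used here, so paralogues and overlapping genes may share reads. The deposited table of scaled values (RPKM) was not used.

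Of 32105 genes, 17025 passed filterByExpr. Counts were scaled by TMM and fitted with 1 model of the 4 group means over all 20 libraries (edgeR 4.0.16, limma 3.58.1, R 4.3.3), with robust quasi-likelihood tests and Benjamini-Hochberg adjustment over all tested genes. Depth was 31550213 to 48920974 counts, and standard errors carry the precision that depth and replicates give. Each standard error (SE) of a log2 change was derived from the test, as the absolute log2 change divided by the square root of the quasi-likelihood F statistic. Replicates differed beyond counting error, with a chi-square per degree of freedom of 38.8 to 222 over 40 within-group pairs. On simulated counts for the main comparison (17025 genes), 97.1% of 102 genes changed by 2 on the log2 scale and 52% of 98 changed by 1 were recovered, with 3.23% false among calls (19.2% with DESeq2 1.42.0). The changed genes were drawn only from those averaging a log2 CPM of 2 or more. Counts were drawn independently for each gene, without library-wide shifts such as those in epidermis or nerve markers. The rates hold for that setting, and were not tested for lower genes or uneven libraries.

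Symbols came from a name table for 26269 genes, and 1717 of 1884 list names were matched. The naming rule started from called genes with a proper symbol, no overlap between groups and log2 CPM averaging 2 or more (446 genes), and took the 12 highest and 12 lowest of them, up to 3 called members per list by adjusted p, and a fixed panel; other genes were named after their values were seen. Some genes the rule takes are not reported here. The members, lists and panel were chosen with earlier results of these data known. Alternatives were other scalings and filters, voom, DESeq2, the 10 libraries alone, leaving out each library, and leaving out libraries high in epidermis or nerve markers.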

Additional observations from a re-analysis of the deposited data

Results flagged for a closer look

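Groups of 5 values were examined in exercised old and resting young muscle. They covered 41 genes whose values by library are given or plotted, the mitochondrial share, and the epidermis, nerve and glia, leukocyte and liver marker scores. The cut-off is one that about 1 in 20 groups pass when values spread normally. CPM were not transformed, and whether that rate holds for them was not tested. In 10 of 92 groups 1 library stood apart from the other 4 by this cut-off. In exercised old muscle these were library 5 for HSPD1, at 25.6 CPM with the next at 22.3, and library 4 for MYOG, at 8.98 CPM with the next at 4.53, and for nupr1a, at 115 CPM with the next at 47.4. In resting young muscle library 4 stood above the others for 4 genes. It had 109.9 CPM for CPT2 with the next at 57.0, 346 CPM for HADHA with the next at 207, 117 CPM for ccdc136a with the next at 68.4, and 3.72 CPM for ASB15 (ENSDARG00000045863) with the next at 1.19. Resting young library 4 is also the library with the highest nerve marker score, 1.70. Resting young library 2 had 469 CPM for RPL19 with the next at 380.1, resting young library 5 had 5.11 CPM for myhz1.3, below the next at 6.71, and its epidermis score of 3.17 was far above the next at -0.54. The part of the marker scores in these values was not tested.

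The interaction term of the edgeR model was looked up for the 41 genes whose values by library are given or plotted. For 5 of them it passed, so the difference between exercised and resting fish was not the same at both ages. Over all tested genes the term called 57. The interaction was not refitted with libraries left out. The value is the log2 change with the swim tunnel at 3 years minus that at 1 year. It was -0.93 for HSPA9 (adjusted p = 0.0308), from -0.67 at 3 years and 0.25 at 1 year. For HSPD1 it was -1.20 (adjusted p = 0.00885), from -0.73 and 0.48, and for MT-ND1 -1.13 (adjusted p = 0.0457), from -0.64 and 0.48. These 3 mitochondrial genes were thus lower after the swim tunnel at 3 years and higher at 1 year in the fitted values. By edgeR the difference at 1 year did not pass for HSPA9 (adjusted p = 0.268) or HSPD1 (adjusted p = 0.0653), and that at 3 years did not pass for MT-ND1. For AMD1 it was -1.12 (adjusted p = 0.0308), from -1.32 at 3 years and -0.20 at 1 year, and for FOXO4 -0.998 (adjusted p = 0.0407), from -0.19 and 0.80.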

How the results depend on the processing

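No paired analysis was possible because the labels give no replicate numbers. In exercised old against resting young muscle 1104 genes passed; limma voom with quality weights called 2225 and DESeq2 1911, against 294 without the 3 epidermis-high and 199 without the 2 nerve-high libraries, and leaving out 1 library gave 472 to 1575. Library totals without TMM gave 355 higher and 918 lower. For exercised old against resting old muscle the count of 12 was 3 on library totals, 107 with DESeq2, 2 in the 10 libraries of those groups, 2 without the epidermis-high and 5 without the nerve-high libraries, and 1 to 13 with 1 library left out. For resting old against resting young muscle the count of 203 was 113 with no filter, 682 with voom, 720 with DESeq2, 94 in the 10 libraries, 115 without the epidermis-high and 9 without the nerve-high libraries, and 56 to 403 with 1 library left out. The mitochondrial share difference of -3.77 points was -3.73 without the epidermis-high libraries (exact permutation p = 0.0857, where 0.0286 is the smallest possible) and -3.06 to -4.30 with 1 library left out. The log2 difference of myhz2, 0.12, turned to -0.018 on library totals, -0.067 with voom, -0.061 without exercised old library 5 and -0.045 without the epidermis-high libraries; with 1 library left out it was -0.061 to 0.39, and it passed in none of these. Fits that leave out libraries test with fewer samples; for the other settings the cause was not tested. Over the named genes and settings, 2778 values kept their side of the threshold, 574 no longer passed, 3 newly passed and 4 turned sign.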

Other observations

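Some gene families that belong to none of the lists above were examined after their values were seen, and their counts are descriptions with no test of the family. Each count is to be read against all genes, of which 6.48% passed (3.28% higher and 3.2% lower). Subunits of eIF3, the scaffold that brings the small ribosomal subunit to mRNA, rose for 8 of 16 tested genes and fell for none in exercised old against resting young muscle, with a median log2 change of 0.46; EIF3F and EIF3L were at 0.82 ± 0.16 and 0.81 ± 0.17 (SE, adjusted p = 0.00622 and 0.00939 by edgeR). Of the 8, EIF3F, EIF3L, EIF3G and EIF3M passed in all 20 leave-one-out fits, and EIF3H, EIF3I, eif3ea and EIF3B in 16, 15, 8 and 7. The eIF3 median was 0.08 against resting old muscle, and 0.40 for resting old against resting young muscle. Of 22 ASB genes, adaptors of ubiquitin ligases, 6 rose and none fell, with ASB14 at 1.53 ± 0.28, asb5a at 1.01 ± 0.20 and both genes named ASB15 among them. The others, asb2b and asb2a.1, passed in 14 and 5 of the 20 leave-one-out fits. Both follistatin genes (FST), which encode a secreted antagonist of myostatin and activins, rose by 1.12 ± 0.29 (ENSDARG00000052846, in 15 of the 20 leave-one-out fits) and 0.98 ± 0.22. Of 73 genes of the mitochondrial ribosome 6 fell and none rose, where 6.48% of all genes passed and 3.2% fell. Their median was -0.30, with 65 below zero. The median was -0.26 against resting old muscle, and -0.04 for resting old against resting young muscle. Of the 6, MRPL21 and mrpl9 passed in all 20 leave-one-out fits, and mrps18b, MRPL16, MRPS17 and MRPL43 in 14, 13, 9 and 6.

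Genes of iron and haem handling were lower in part. Of 18 tested, 7 fell and 1 rose, where 6.48% of all genes passed. The transferrin receptor genes tfr1b and tfr1a, which take up iron, changed by -1.56 ± 0.16 (SE, adjusted p = 2e-05) and -2.33 ± 0.61 (adjusted p = 0.0293, passing in 16 of the 20 leave-one-out fits), and the iron exporter SLC40A1 by 0.95 ± 0.21 (adjusted p = 0.0125). The transporters of the mitochondrial and porphyrin route ABCB6, ABCB10 and ABCB8 changed by -2.09, -0.89 and -0.76, and the carrier slc25a39 by -1.35, with ABCB8 passing in 16 and slc25a39 in 18 of those fits. Red blood cell markers summed to 157 to 191 CPM in exercised old and 137 to 261 CPM in resting young muscle, and none of 12 passed the test by edgeR, where 2 had an unadjusted p under 0.05; DESeq2 called 0 and voom 1. Among 49 mitochondrial carriers of the SLC25 family 3 rose and 7 fell, again where 6.48% of all genes passed. The 2 genes named SLC25A32 went opposite ways, ENSDARG00000089791 at 2.19 ± 0.35 and ENSDARG00000026835 at -0.80 ± 0.17.

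A few genes were present in some libraries of a group and nearly absent in others. ENSDARG00000070516, which has no symbol, had 0, 0.0248, 0, 0 and 0 CPM in exercised old and 8.93, 9.94, 9.94, 7.55 and 0.0216 CPM in resting young muscle. In resting old muscle 1 of 5 libraries was high, at 9.54 CPM, and in exercised young muscle 3 of 5 were, at 9.40, 15.2 and 9.12 CPM. The gene otoa had 0.146, 0.0497, 0, 0.389 and 0.027 CPM in exercised old and 9.24, 11.4, 9.73, 7.31 and 0.388 CPM in resting young muscle. POGLUT2 had 1.11 to 1.82 CPM in exercised old libraries, and in resting young ones 7.03, 14.8, 1.29, 11.9 and 11.6 CPM. The origin of these all-or-nothing levels was not tested.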
